A study of Mus musculus with 15 samples.

Results

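The mouse Serpina1 genes, the gene cluster for alpha-1-antitrypsin, were followed through 4 groups of tissue on 15 microarrays. The 6 genes Serpina1a, Serpina1b, Serpina1c, Serpina1d, Serpina1e and Serpina1f were looked up by the RefSeq accession that the array gives for each probe, and 5 of them had a probe, 8 probes in all of 55681 on the array. Serpina1b had no probe under its accession and has no values here. Serpina1a, Serpina1d and Serpina1e had 2 probes each, called the brighter and the dimmer probe, and Serpina1c and Serpina1f had 1. All 5 genes passed the filter on dim probes and were tested among 15620 genes. Serpina1a to Serpina1e are close copies of each other, so a probe named for one of them may also bind RNA of the others, and their values may not be independent.

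Neo-liver was liver tissue grown under the kidney capsule of female FVB/N mice and dissected out of the kidney (4 arrays). Its hosts were 7 to 9 weeks old at the start, received 2 intraperitoneal doses of monocrotaline (MCT, a plant alkaloid that injures the liver) of 70 mg/kg given 2 weeks apart, and 2 weeks later 1000000 hepatocytes. The donors were FVB/N-hA1AT Tg mice of 8 to 20 weeks, which carry a transgene for human antitrypsin, so neo-liver hepatocytes hold that transgene beside their own mouse genes. Host liver (4 arrays) and host kidney (4 arrays) came from the MCT-treated, transplanted hosts, and all host tissues were taken at day 250 to 300, at an age of 48 to 55 weeks. Control liver (3 arrays) came from normal mice of 20 weeks without MCT or transplant, so age and treatment cannot be told apart in comparisons with it. Whether the human transcript binds the mouse probes was not tested.

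Antitrypsin is a serine protease inhibitor, or serpin, that hepatocytes secrete into the blood, where it restrains neutrophil elastase and other proteases. A serpin offers a protease a reactive loop as bait and traps it in a stable complex. Humans have a single antitrypsin gene, while mice have a cluster of copies whose reactive loops differ. In the RefSeq gene table the order on chromosome 12 was Serpina6, Serpina16, Serpina1f, Serpina1b, Serpina1d, Serpina1a, Serpina1c, Serpina1e, Serpina11, Serpina9 and Serpina12, when predicted genes are left out, which places Serpina1f at the outer end of the cluster.

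The promoters are shown because the 5 measured genes fell into 2 patterns, Serpina1f on one side and the others on the other. All 6 genes matched the RefSeq table of promoters (GRCm38.p6, minus strand), which holds 250 bases before and 50 bases after each start. Serpina1a and Serpina1f are given in full, and Serpina1b to Serpina1e as the 70 bases that align with the start region of Serpina1a. Capitals mark GTTAATATTCAC, a 12-base stretch picked by reading these promoters and taken from Serpina1a, where it starts at GTTAAT.
Serpina1a chr12:103863570-103863869: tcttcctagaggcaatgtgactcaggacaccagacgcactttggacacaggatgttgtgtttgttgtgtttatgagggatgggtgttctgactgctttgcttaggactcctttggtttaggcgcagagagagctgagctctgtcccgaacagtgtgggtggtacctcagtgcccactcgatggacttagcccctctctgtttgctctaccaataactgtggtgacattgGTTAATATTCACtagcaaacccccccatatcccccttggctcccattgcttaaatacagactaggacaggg
Serpina1b chr12:103738166-103738235: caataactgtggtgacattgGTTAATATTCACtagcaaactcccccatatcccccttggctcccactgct
Serpina1c chr12:103904928-103904997: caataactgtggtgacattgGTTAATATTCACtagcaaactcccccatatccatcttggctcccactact
Serpina1d chr12:103773600-103773669: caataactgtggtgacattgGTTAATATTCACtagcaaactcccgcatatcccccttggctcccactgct
Serpina1e chr12:103956926-103956995: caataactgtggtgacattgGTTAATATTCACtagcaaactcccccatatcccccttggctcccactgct
Serpina1f chr12:103695480-103695779: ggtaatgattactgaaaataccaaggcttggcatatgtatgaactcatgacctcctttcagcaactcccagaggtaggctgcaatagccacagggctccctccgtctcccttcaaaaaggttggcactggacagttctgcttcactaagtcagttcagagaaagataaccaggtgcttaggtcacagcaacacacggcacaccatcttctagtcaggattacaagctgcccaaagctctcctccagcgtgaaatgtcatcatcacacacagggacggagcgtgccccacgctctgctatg

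Serpina1a to Serpina1e all carry GTTAATATTCAC on the sense strand, with its first base at -21, -26, -27, -16 and -78 from the annotated start in the order a to e. Searched on both strands, it occurred in 5 of 32851 promoters of the same length (0.0152%), which are these 5. Its first 6 bases, GTTAAT, occurred in 2332 of them (7.1%). Since the stretch was taken from Serpina1a, finding it in close copies is not an independent result. The promoter of Serpina1f did not hold it within this window. The printed windows differ from that of Serpina1a at 2 bases in Serpina1b, 5 in Serpina1c, 3 in Serpina1d and 2 in Serpina1e. Over the aligned promoters, the 10 pairs among Serpina1a to Serpina1e were 91.4% to 97.6% identical. These matches describe the reference sequence, not one read from these FVB/N mice, and do not show binding.

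Levels are given as log2 of the array's processed signal minus the log2 of its 75th percentile, so 0 is the 75th percentile of that array. That percentile was 416 to 676 signal units on neo-liver arrays, 287 to 448 on host liver arrays, 561 to 875 on host kidney arrays and 390 to 424 on control liver arrays. The mean level of 11 hepatocyte markers, of 12 listed, was 8.28 to 8.91 in neo-liver, 9.21 to 9.74 in host liver, -2.34 to -1.32 in host kidney and 9.23 to 9.32 in control liver, in keeping with the labels. Kidney RNA was present in neo-liver. Over 57 kidney epithelium markers, of 64 listed, the median signal above control liver was 18.9%, 40%, 17.9% and 29.8% of that of host kidney on the 4 neo-liver arrays, against 0.00904% to 0.0284% on host liver arrays. In such mixed tissue, fewer hepatocytes and less RNA per hepatocyte cannot be told apart. Neo-liver arrays shared slide 2 with the control livers, host liver arrays were on slides 3 and 4 and host kidney arrays on slide 1. Slide and tissue therefore cannot be told apart, except between neo-liver and control liver. With slide as a random block no call of a Serpina1 gene changed, but this cannot separate slide from tissue where they coincide.

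Serpina1a, a main serum antitrypsin of mice, was among the brightest probes in every liver sample and in neo-liver. The processed signal of its brighter probe was 486051, 497097, 508056 and 484939 on neo-liver arrays, 521291, 539287, 526469 and 520040 on host liver arrays, 1738, 3929, 2142 and 3116 on host kidney arrays and 498707, 500162 and 506128 on control liver arrays. Neo-liver and liver arrays lay close together and far above all host kidney arrays. Its dimmer probe read 173693, 154406, 228664 and 138273 on neo-liver arrays, 252375, 293492, 333483 and 248198 on host liver arrays, 188, 396, 213 and 296 on host kidney arrays and 245815, 240718 and 207907 on control liver arrays. In this probe's signal, which is not scaled between arrays, 3 of the 4 neo-liver arrays lay below all host and control livers. The remaining one, neo-liver array 3, lay within the control livers and below the host livers. In the scaled level all neo-liver arrays (7.69 to 8.71) lay below the control livers (8.99 to 9.27) and host livers (9.29 to 9.78).

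Serpina1c followed the brighter Serpina1a probe closely. It had a signal of 502588, 518831, 497371 and 480504 on neo-liver arrays, 551809, 563425, 569388 and 534238 on host liver arrays, 1668, 3929, 2033 and 3075 on host kidney arrays and 550212, 539960 and 501859 on control liver arrays. All neo-liver arrays were below all host livers, and in this unscaled signal they overlapped the control livers. In the scaled level they did not, at 9.49 to 10.24 in neo-liver and 10.26 to 10.44 in control liver.

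Serpina1d had a brighter probe with a signal of 161196, 166456, 239292 and 158659 on neo-liver arrays, 250106, 300284, 313546 and 271025 on host liver arrays, 234, 574, 334 and 554 on host kidney arrays and 281968, 266827 and 252751 on control liver arrays. Every neo-liver array was below every liver array. Its dimmer probe ranged from 93324 to 170442 in neo-liver, 157419 to 236040 in host liver, 108 to 224 in host kidney and 187313 to 213209 in control liver.

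Serpina1e had a brighter probe with a signal of 423855, 434501, 450544 and 416787 on neo-liver arrays, 480131, 473256, 493651 and 476025 on host liver arrays, 1277, 2983, 1561 and 2182 on host kidney arrays and 458096, 462659 and 438190 on control liver arrays. Neo-liver lay below the host livers, and in this unscaled signal it overlapped the control livers. In the scaled level Serpina1e did not overlap on this probe, at 9.28 to 9.99 in neo-liver and 10.07 to 10.21 in control liver. Its dimmer probe ranged from 189289 to 252680 in neo-liver, 288132 to 311582 in host liver, 335 to 622 in host kidney and 262442 to 302452 in control liver, with neo-liver below both livers. All 7 probes of Serpina1a to Serpina1e were well above background on all 15 arrays, host kidney included.

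**Figure D1:**
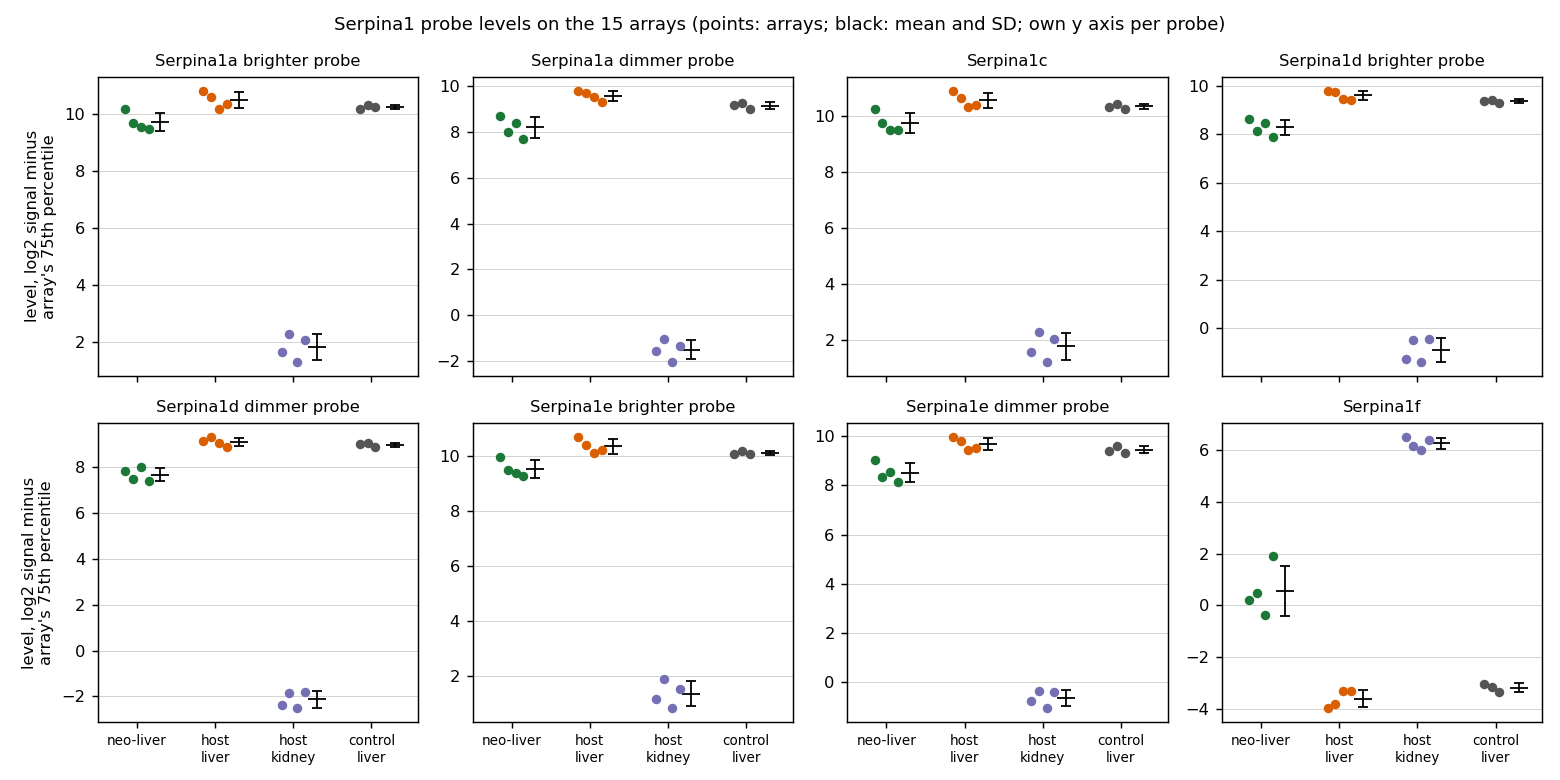
Level of each Serpina1 probe (log2 signal minus the array's 75th percentile, own y axis per probe) on each array of neo-liver, host liver, host kidney and control liver; points are arrays, black marks are the mean and SD. The probes of Serpina1a to Serpina1e are high in neo-liver and both livers and low in host kidney, and Serpina1f has the opposite order, with means of 0.56 in neo-liver, -3.59 in host liver, 6.26 in host kidney and -3.16 in control liver.

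Neo-liver differed from host kidney, the organ in which it grew, in all 5 measured Serpina1 genes. Called here means a Benjamini-Hochberg adjusted p under 0.05 over the 15620 genes of a comparison, by limma's moderated test. In neo-liver against host kidney, 4 of 5 genes were called higher, where 23.2% of all genes were, and 1 of 5 was called lower, where 29.4% were. Serpina1a averaged 9.74 ± 0.31 in neo-liver and 1.82 ± 0.45 in host kidney (log2 level, SD, n = 4 each), a difference of 7.92 ± 0.22 (SE, 242-fold, adjusted p = 2.5e-12). Serpina1c rose by 7.97 ± 0.23, Serpina1d by 9.16 ± 0.22 and Serpina1e by 8.18 ± 0.22 on the log2 scale. The dimmer probes gave larger differences for the same genes, 9.70 for Serpina1a, 9.79 for Serpina1d and 9.15 for Serpina1e. Host liver set against host kidney gave 4 of 5 genes higher (39.5% of all genes) and 1 of 5 lower (31.2%). There Serpina1a was 8.68 ± 0.22 higher, Serpina1c 8.79 ± 0.23, Serpina1d 10.49 ± 0.22 and Serpina1e 9.00 ± 0.22 (log2 difference, SE). These comparisons share the host kidney arrays. Over all genes, 3621 were called higher and 4599 lower in neo-liver against host kidney, or 1869 and 5654 without scaling, and 6167 and 4877 in host liver against host kidney, or 1694 and 9418 without scaling. The 4 genes higher in each were also called higher without scaling, where host liver minus host kidney was 7.66 for Serpina1a, 7.78 for Serpina1c, 9.48 for Serpina1d and 7.98 for Serpina1e.

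Against host liver, the injured organ of the hosts, neo-liver had less of Serpina1a, Serpina1c, Serpina1d and Serpina1e, and more of Serpina1f. Of the 5 genes, 4 were called lower, where 31% of all genes were, and 1 was called higher, where 17.1% were. Serpina1d averaged 8.27 ± 0.32 in neo-liver and 9.60 ± 0.19 in host liver (log2 level, SD, n = 4 each), on the brighter probe, a difference of -1.33 ± 0.22 (SE, adjusted p = 0.000359). Serpina1a fell by 0.76 ± 0.22 (adjusted p = 0.0114), Serpina1c by 0.82 ± 0.23 (adjusted p = 0.0106) and Serpina1e by 0.82 ± 0.22 (adjusted p = 0.00762). The median of all genes was -0.21 in this comparison. With quantile normalization, 0 of these falls were called by limma, and 0 had an unadjusted p under 0.05. Serpina1d was then -0.44 ± 0.21 (adjusted p = 0.121), Serpina1a -0.01, Serpina1c -0.08 and Serpina1e -0.02. Over all genes, 2676 were called higher and 4844 lower with the 75th percentile, 2691 and 2573 with quantile normalization, where the median was -0.07, and 2108 and 6971 with median centring, where it was -0.41. Without any scaling 5159 were called higher and 108 lower, with a median of 0.46.

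Against control liver the same 4 genes pointed down, and 1 of them was called. Serpina1d averaged 8.27 ± 0.32 in neo-liver (n = 4) and 9.36 ± 0.08 in control liver (n = 3), a difference of -1.09 ± 0.24 (SE, adjusted p = 0.00216). That makes 1 of 5 called lower, where 29.7% of all genes were, and Serpina1f alone was called higher, where 20.4% were. Serpina1a was at -0.53 ± 0.23 (adjusted p = 0.0748), Serpina1c at -0.59 ± 0.25 (adjusted p = 0.0617) and Serpina1e at -0.58 ± 0.24 (adjusted p = 0.0557). Each of these had an unadjusted p under 0.05, and scaled levels of all neo-liver arrays lay below those of all control livers. The gap was narrow, with a highest neo-liver level of 10.19 and a lowest control liver level of 10.2 for Serpina1a. For Serpina1c these were 10.24 and 10.26. The shares of all genes with such a p or such a gap are not given here, so neither adds to the calls. Neo-liver array 1 had the highest scaled level of Serpina1a, Serpina1c and Serpina1e among the neo-liver arrays, and without it all 4 genes were called lower. Its unscaled signal was not the highest of them for any of these 3 genes, and its 75th percentile, 416, was the lowest. With quantile normalization 0 were called lower, 0 had an unadjusted p under 0.05, and Serpina1d was at -0.32 ± 0.23 and Serpina1a at 0.02. The calls over all genes were 3184 higher and 4637 lower with the 75th percentile (median -0.15), 3607 and 3284 with quantile normalization (median -0.02), and 4363 and 664 without scaling (median 0.35).

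The size of these differences also depended on the probe. On each gene's dimmer probe, tested among 20389 probes, neo-liver was lower than host liver by 1.38 ± 0.23 for Serpina1a, 1.42 ± 0.18 for Serpina1d and 1.18 ± 0.20 for Serpina1e (log2, SE, adjusted p = 0.000416, 4.84e-05 and 0.000498). Against control liver the dimmer probes were called lower for all 3 genes, by 0.94 ± 0.25, 1.29 ± 0.20 and 0.93 ± 0.22 (adjusted p = 0.00753, 0.000147 and 0.00358). The gap between the brighter and the dimmer probe of a gene was wider in host kidney than in the other tissues. For Serpina1a it was 1.15 to 1.81 in neo-liver, 0.66 to 1.07 in host liver, 3.21 to 3.40 in host kidney and 1.02 to 1.28 in control liver (log2), and for Serpina1e 0.83 to 1.19, 0.60 to 0.74, 1.89 to 2.26 and 0.61 to 0.74 in the same order of tissues. For Serpina1d it was 0.49 to 0.79, 0.41 to 0.67, 1.11 to 1.36 and 0.39 to 0.43, so that neo-liver and host liver overlapped.

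**Figure D2:**
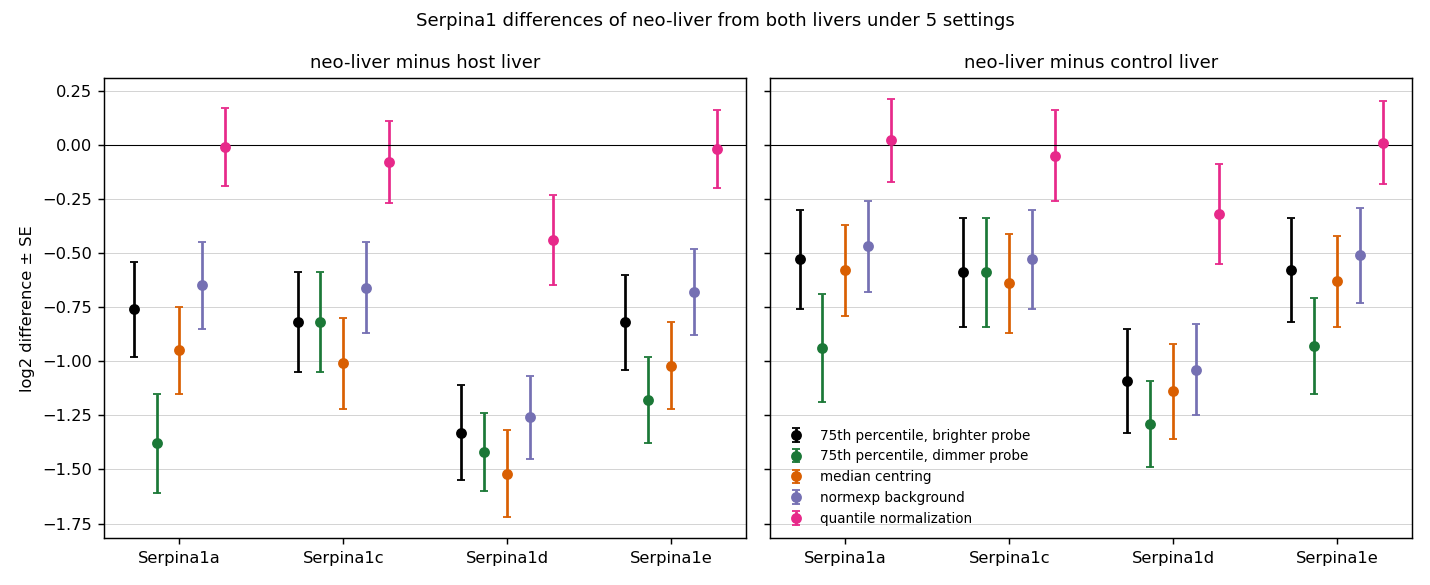
Log2 difference with its SE of Serpina1a, Serpina1c, Serpina1d and Serpina1e in neo-liver minus host liver (left) and neo-liver minus control liver (right) under 5 settings, with Serpina1c having 1 probe. Serpina1d has the lowest value under each setting drawn, with the dimmer probe of Serpina1a (-1.38) close to its own (-1.42) in neo-liver minus host liver, and quantile normalization puts all genes but Serpina1d within 0.08 of 0.

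The brightest probes varied little between neo-liver and liver arrays. On the 11 neo-liver and liver arrays the median spot signal was 66.1% to 73% of the scanner's saturation value for the brighter Serpina1a probe, 57.2% to 64.4% for Serpina1c and 52.1% to 59.8% for the brighter Serpina1e probe, and these probes ranked between 3 and 20 by signal on their arrays. No spot was called saturated. Their highest signal over the 11 arrays was 1.11, 1.18 and 1.18 times their lowest, in the order Serpina1a, Serpina1c, Serpina1e. The dimmer probes spread more, 2.41 times for Serpina1a, 2.53 for Serpina1d and 1.65 for Serpina1e, and the brighter Serpina1d probe spread 1.98 times. Whether this limits the measured differences was not tested.

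**Figure D3:**
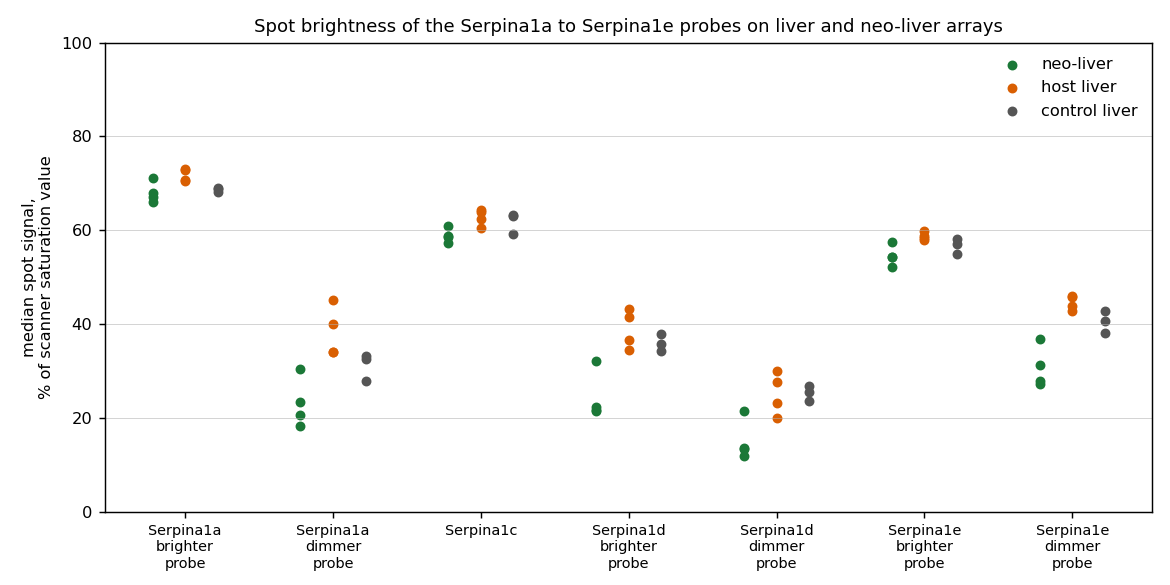
Median spot signal as a percentage of the scanner's saturation value (y axis, from 0) for the probes of Serpina1a to Serpina1e on each neo-liver, host liver and control liver array. The brighter Serpina1a probe sits between 66.1% and 73% on all 11 arrays, and the dimmer probe of Serpina1d sits between 11.8% and 30%.

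Host liver and control liver did not differ by the test in any measured Serpina1 gene. By limma 0 of 5 were called higher, where 13.3% of all genes were, and 0 of 5 lower, where 11.2% were, and 0 had an unadjusted p under 0.05. Serpina1a was 0.23 ± 0.23, Serpina1c 0.22 ± 0.25, Serpina1d 0.24 ± 0.24 and Serpina1e 0.24 ± 0.24 (log2 difference, SE, adjusted p = 0.479 to 0.545 over these genes). Serpina1f was at -0.43 ± 0.39 (adjusted p = 0.454). These errors, with 4 and 3 arrays, set the size of difference that could be seen. Over all genes 2076 were called higher and 1757 lower, against 3211 and 1187 with median centring and 410 and 1199 without scaling.

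Serpina1f ran against the rest of the cluster, with its highest level in host kidney. Its signal was 477, 833, 527 and 2527 on neo-liver arrays, 18, 25, 45 and 40 on host liver arrays, 50867, 56994, 56545 and 61591 on host kidney arrays and 52, 44 and 41 on control liver arrays. The neo-liver arrays lay between the kidneys and the livers without overlap, and neo-liver array 4 was the highest of them. It was well above background on all neo-liver, host kidney and control liver arrays and on 2 of the 4 host liver arrays. The level averaged 0.56 ± 0.97 in neo-liver (n = 4), -3.59 ± 0.34 in host liver (n = 4), 6.26 ± 0.22 in host kidney (n = 4) and -3.16 ± 0.16 in control liver (n = 3; log2, SD). Neo-liver was 5.70 ± 0.36 lower than host kidney (adjusted p = 2.1e-08), 4.15 ± 0.36 higher than host liver (adjusted p = 1.2e-06) and 3.72 ± 0.39 higher than control liver (adjusted p = 5.61e-06), on the log2 scale. Host liver was 9.85 ± 0.36 lower than host kidney (adjusted p = 2.59e-11). Since its signal in the livers was near background, these sizes depend on the background step and the scaling. With normexp background correction neo-liver was 2.48 ± 0.32 higher than host liver (adjusted p = 3.93e-05) and 2.51 ± 0.34 higher than control liver (adjusted p = 4.35e-05). Host liver minus host kidney was -8.00 with normexp and -10.86 without scaling. The direction and the call were the same in each of these.

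Serpina1f in neo-liver was below the level of most kidney markers there. Its signal above control liver was 1.34%, 1.66%, 0.865% and 4.76% of that of host kidney on the 4 neo-liver arrays, where the median over the kidney markers was 18.9%, 40%, 17.9% and 29.8%. Its mean of 2.16% was the third lowest among Serpina1f and the 57 markers. Neighbours in that order were Aqp4, a water channel of the collecting duct (0.912%), Slc7a12, an amino acid transporter (1.68%), Mep1b, a brush border protease subunit (2.44%), Slc22a19, an organic anion transporter (3.05%), and Slc12a1, the salt carrier of the loop of Henle (3.7%). When each array's kidney share of the host kidney signal was subtracted, Serpina1f was at the floor on 4 of 4 neo-liver arrays, and its difference was -1.29 against host liver and -1.71 against control liver, set by that floor.

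**Figure D4:**
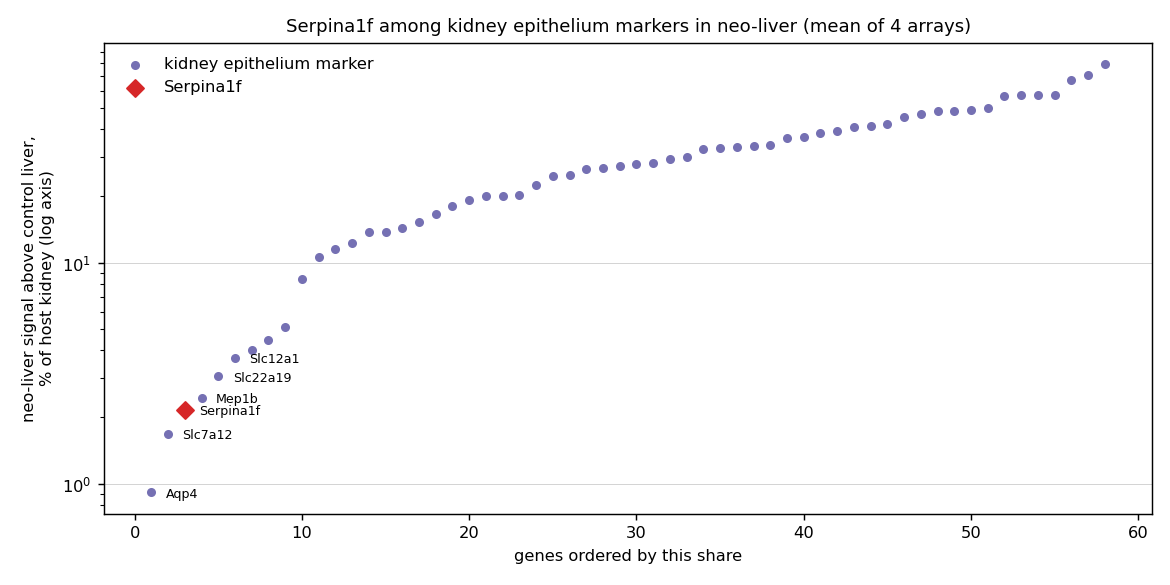
Signal of each kidney epithelium marker and of Serpina1f in neo-liver, less its control liver signal, as a percentage of the same quantity in host kidney (log axis, mean of 4 arrays), with genes ordered by this share. Serpina1f, at 2.16%, is the third lowest of 58 genes, between Slc7a12 (1.68%) and Mep1b (2.44%).

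The genes most like each Serpina1 gene were found by the root mean square difference over the 15 arrays after each gene was centred on its own mean, so a small value means the same profile over arrays that share the 4 tissues. The search left out the Serpina1 genes themselves and genes with Gm number, Rik or LOC names. Mbl2, a collectin that binds microbial sugars, was nearest to Serpina1a (0.21), Serpina1c (0.19) and Serpina1e (0.20). Igf1, the insulin-like growth factor made by liver, was at 0.32, 0.32 and 0.35 from the same genes, and Apoc3, an apolipoprotein, at 0.36 from Serpina1a. Clec4g, a lectin of liver sinusoidal endothelium, was at 0.35 from Serpina1c and 0.29 from Serpina1e. Serpina1d was nearest to Itih2, a subunit of an inter-alpha-trypsin inhibitor (0.25), Asgr1, the asialoglycoprotein receptor (0.29), and Hrg, histidine-rich glycoprotein (0.31). Serpina1f was nearest to Slc22a13, a urate transporter (0.56), Kcnk1, a potassium channel (0.59), and Ldc1 (0.61).

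Other clade A serpins, the family of antitrypsin that includes genes beside the cluster, are given as a list of 20, of which 16 were tested. The counts of this and the following lists stand against the share of all genes called, which was 23.2% higher and 29.4% lower in neo-liver against host kidney, 17.1% and 31% against host liver, 20.4% and 29.7% against control liver, and 13.3% and 11.2% in host liver against control liver. The medians of all genes in the same order were -0.09, -0.21, -0.15 and 0.07. In neo-liver against host kidney 15 were called higher and 0 lower, with a median of 5.47 where that of all genes was -0.09. Serpina3m, of the antichymotrypsin group, was 11.75 ± 0.30 higher (adjusted p = 1.57e-12), and Serpina6, the corticosteroid carrier on the Serpina1f side of the cluster beyond Serpina16, 7.01 ± 0.38 higher (adjusted p = 3.26e-09). Against host liver 1 was higher and 7 lower (median -0.89, all genes -0.21), among them Agt, the angiotensin precursor, at -1.55 ± 0.17 (adjusted p = 8.2e-06). With quantile normalization 2 were lower against host liver. Against control liver 2 were higher and 6 lower (median -0.47), and host liver against control liver had 1 higher and 2 lower. Serpina7, the thyroxine carrier, was higher in neo-liver (2.49 ± 0.62, adjusted p = 0.00478) and in host liver (2.60 ± 0.62, adjusted p = 0.00941) than in the control livers that both comparisons share. Serpina3h was lower in both, by 2.16 ± 0.36 (adjusted p = 0.000251) and 2.24 ± 0.36 (adjusted p = 0.000926).

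Other plasma protease inhibitors of the liver showed a like order, with 12 of 13 tested. In neo-liver 11 were higher and 0 lower than in host kidney (median 9.31), including Itih4, an inter-alpha-trypsin inhibitor chain (12.06 ± 0.26, adjusted p = 2.84e-13), and Serpinc1, antithrombin (10.30 ± 0.25, adjusted p = 8.69e-13). Against host liver 0 were higher and 10 lower (median -1.05), with Serping1, the C1 inhibitor, at -1.25 ± 0.23 (adjusted p = 0.00074). Against control liver 1 was higher and 6 lower (median -0.60). With quantile normalization 0 were called lower against either liver.

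Of 11 transcription factors known to act on antitrypsin genes, all tested, 7 were higher and 1 lower in neo-liver than in host kidney (median 2.53). Foxa2, a liver forkhead factor, was 8.89 ± 0.20 higher (adjusted p = 4.49e-13). Foxa3, of the same family, was above background on 0 of 4 host kidney arrays and at least 193-fold higher in neo-liver. Against host liver 0 were higher and 5 lower (median -0.78), with Cebpa, a factor of mature hepatocytes, at -1.08 ± 0.27 (adjusted p = 0.00497) and Foxa2 at -1.04 ± 0.20 (adjusted p = 0.00103), against 3 lower with quantile normalization. Against control liver 1 was higher and 4 lower (median -0.62, all genes -0.15), a share lower near the 29.7% of all genes, including Onecut1, a hepatocyte factor, at -2.58 ± 0.48 (adjusted p = 0.000632), Cebpa at -1.81 ± 0.29 (adjusted p = 0.000189) and Foxa2 at -1.56 ± 0.22 (adjusted p = 6.75e-05). Host liver against control liver had 2 higher and 0 lower, among them Xbp1, a factor of the unfolded protein response, at 0.95 ± 0.14 (adjusted p = 0.000472).

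Genes for the secretion, folding and disposal of antitrypsin were all tested, 24 in number. In neo-liver against host kidney 10 were higher and 2 lower (median 0.49), or 16 and 3 with a replicate block, with Sec24d and Sec23a, coat proteins of export vesicles, 1.80 ± 0.19 (adjusted p = 3.15e-06) and 1.42 ± 0.17 (adjusted p = 1.15e-05) higher. Against host liver 1 was higher and 12 lower (median -0.47), or 1 and 19 with the replicate block, 1 and 3 with quantile normalization. The replicate block also raised the calls over all genes, to 2947 higher and 5748 lower against host liver. Against host kidney they were 4090 and 5179. Edem1, which directs misfolded glycoproteins to disposal, was at -0.91 ± 0.22 (adjusted p = 0.00467). Against control liver 1 was higher and 9 lower (median -0.15, as over all genes), a share lower that is near the 29.7% of all genes, with Edem1 at -1.32 ± 0.24 (adjusted p = 0.000518). In both comparisons the gene called higher was Fkbp10, a chaperone of collagen and other secreted proteins, at 1.51 ± 0.22 against host liver (adjusted p = 0.00011) and 2.11 ± 0.24 against control liver (adjusted p = 9.73e-06). Host liver against control liver had 1 higher and 1 lower.

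Among proteases that antitrypsin is known to inhibit, 9 of 11 were tested. Against host kidney 5 were higher and 4 lower in neo-liver (median 3.59), with F11, coagulation factor XI, 9.02 ± 0.30 higher (adjusted p = 2.26e-11) and Klkb1, plasma prekallikrein, 4.93 ± 0.13 higher (adjusted p = 1.57e-12). Against host liver 5 were higher and 1 lower (median 1.13), among them Prss8 and St14, membrane proteases of epithelia that kidney also makes, at 3.58 ± 0.48 (adjusted p = 6.6e-05) and 2.50 ± 0.23 (adjusted p = 2.43e-06). With the kidney share subtracted both turned, to -0.98 and -2.14, the St14 value being set by the floor, as for Serpina1f. In that setting 1 was higher and 2 lower, where 1250 of all genes were called higher and 9431 lower, with a median of -0.74. Against control liver 6 were higher and 1 lower (median 2.72), or 3 and 2 with the kidney share subtracted. With that subtraction 1673 of all genes were called higher and 8661 lower against control liver, with a median of -0.67. Ctsg, a neutrophil granule protease, was 2.91 ± 0.72 higher there (adjusted p = 0.00432). Elane, neutrophil elastase, is in this list and among the neutrophil markers. It averaged 2.26 ± 0.52 in neo-liver and 2.25 ± 0.1 in control liver (log2 level, SD). In host liver it was 1.47 ± 0.2, and it was highest in host kidney, at 3.2 ± 0.55. Of 10 neutrophil markers, 8 were tested, and 7 were higher and 0 lower in neo-liver than in control liver (median 4.79), 5 and 0 against host liver (median 2.19), or 7 and 0 with the replicate block. Their part in the protease counts was not tested.

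The receptors that clear antitrypsin and its complexes, 4 genes, had 3 higher and 1 lower in neo-liver against host kidney, 1 and 3 against host liver and 1 and 2 against control liver, with medians of 6.19, -0.97 and -0.63. With 4 genes these counts are few to set against the shares of all genes. The gene that was higher against both livers and lower against host kidney was Lrp2, which is also one of the kidney epithelium markers. Its level averaged 5.93 in neo-liver, -3.79 in host liver, 8.06 in host kidney and -6.49 in control liver (log2). Asgr1 and Asgr2, the subunits of the asialoglycoprotein receptor of hepatocytes, were 9.30 ± 0.14 and 8.41 ± 0.16 higher than in host kidney (adjusted p = 9.37e-15 and 5.78e-14). They were at -0.91 ± 0.14 and -1.03 ± 0.16 against host liver (adjusted p = 0.000222 and 0.000177). With quantile normalization 1 of the 4 was higher and 1 lower there.

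Acute phase genes, which the liver raises in inflammation together with antitrypsin in humans, were 19 of 19 higher in neo-liver than in host kidney (median 8.39). Against host liver 0 were higher and 11 lower (median -0.98), or 3 lower with quantile normalization, and against control liver 1 was higher and 2 lower (median -0.32). In host liver against control liver 5 were higher and 0 lower (median 1.00, all genes 0.07), and this count fell to 2 without control liver array 1. Hp, haptoglobin, was 1.17 ± 0.26 higher (adjusted p = 0.00624) and Apcs, serum amyloid P, 1.61 ± 0.38 higher (adjusted p = 0.00897), while the Serpina1 genes had none called in that comparison. The hepatocyte markers were 11 of 11 higher in neo-liver than in host kidney, with 8 lower against host liver and 7 against control liver, or 1 and 2 with quantile normalization.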

How the data were processed

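RNA of 15 tissue samples was hybridised to one-colour Cy3 Agilent arrays, 1 per sample. Per the file headers, the deposited scanner files hold intensity values from Agilent Feature Extraction 10.10.1.1, background-subtracted and not scaled between arrays. The deposited values of the whole series are on a log2 scale and matched the log2 processed signal less an array-wide constant to within 0.01 for at least 99.7% of 54108 probes. The median of its columns was -3.731 to -3.353, and genes were not centred.

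Spots of a probe were averaged and scaled to the array's 75th percentile. Probes well above background on all arrays of at least 1 group were kept (34990 of 55681, of which 20389 had a symbol), and the brightest probe per symbol was used, 15620 genes, 4004 of them with over 1 kept probe. One limma fit over all arrays (limma 3.58.1 and statmod 1.5.0 in R 4.3.3, with data.table version 1.17.8; Python 3.11.15, Biopython 1.88, matplotlib 3.10.9) gave two-sided moderated tests, checked on simulated data. The labels do not say whether samples of a group came from separate mice, so p-values measure the spread between these samples, and the number of arrays limits the precision. Samples were grouped by their labels.

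Alternatives were quantile normalization, median centring, no scaling (added after seeing the data), the deposited values, normexp (offset 50), other filters and probes, only the compared groups, a replicate block, slide, kidney share subtraction and leaving out each array. The kidney share used markers whose signal in host kidney was 8 or more times that in control liver. Residuals of same-numbered host tissues correlated at 0.176 to 0.576 across genes, and best with their own number in 12 of 12 cases, so the numbers were taken to mark mice. Control livers came from mice other than the hosts. The members and lists were chosen with earlier results of these data known. The named genes are the 3 most like each member and called list members with the largest differences, not all of which are given. Serpina6 and Elane fall outside that rule and were chosen after their values were seen. Some list members are not reported here by name.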

Additional observations from a re-analysis of the deposited data

How the results depend on the processing

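The calls of Serpina1a, Serpina1c, Serpina1d, Serpina1e and Serpina1f in neo-liver minus host kidney and host liver minus host kidney were the same under every alternative run, and in host liver minus control liver 0 genes were called under each. In neo-liver minus host liver, 0 genes were lower with quantile normalization and 0 without scaling, against 4, and 0 were higher with the kidney share subtracted, against 1. In neo-liver minus control liver, 0 were higher with the kidney share subtracted, against 1. The number lower there, 1, was 0 with quantile normalization or without scaling, 3 with the mean of a gene's probes, the dimmer probe or the kidney share subtracted (there Serpina1d, Serpina1e and Serpina1f), 4 with median centring or only the 2 groups compared, and 1 to 4 when each array was left out in turn. With the kidney share subtracted, Serpina1f turned to -1.29 against host liver and -1.71 against control liver, values set by the floor. In the same setting Prss8 and St14 turned to -0.98 and -2.14 against host liver, the St14 value also being set by the floor. Over all genes that setting called 1250 higher and 9431 lower against host liver (median -0.74). Against control liver it called 1673 and 8661 (median -0.67). Apart from the floor, the causes of the Prss8, St14 and other changes were not tested. With the replicate block, neo-liver minus host liver had 1 Serpina1 gene higher and 4 lower, and no call of a Serpina1 gene changed in any comparison. Serpina1f had low signal in both livers, near background, which limits its differences there.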
